A study of Homo sapiens with 6 samples.

Results

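A group of 10 genes was followed through CYLD knockdown and ALK5 inhibition in SAS oral squamous carcinoma cells: CCN1, CCN2, ANKRD1, AJUBA, AMOTL2, CRIM1, AXL, LATS2, MYOF and TEAD1. They were chosen by gene symbol as commonly used transcriptional targets of YAP and TAZ together with 1 TEAD factor. Their probe sets were found by symbol in the platform annotation, with no measured value in that rule. The genes themselves were picked with earlier results of these data known. They are 10 of 19775 genes that had at least 1 probe set annotated to a single symbol. The group has 24 probe sets, of which 22 passed the expression filter. ANKRD1 did not pass it, so 9 genes were tested.

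YAP and TAZ are transcriptional co-activators that bind DNA through TEAD proteins. In the Hippo cascade MST kinases activate LATS kinases, which phosphorylate YAP and TAZ and so keep them out of the nucleus, and several of their targets, such as LATS2, AMOTL2 and AJUBA, encode regulators of the pathway itself. CCN2 and CCN1 are the targets most often read as pathway reporters in epithelial tumour cells, and CCN2 is also a classical target of TGF-β through SMAD proteins.

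SAS is an established human line. Cells received a control siRNA (siCtrl) or an siRNA against CYLD, a deubiquitinase (siCYLD), grew for 2 days and then spent 48 h without serum in DMSO or in an inhibitor of ALK5, the kinase receptor for TGF-β. The DMSO groups, called untreated here, had 2 arrays each, and each inhibitor group had 1. The titles name 1 siRNA against CYLD and no rescue, so CYLD loss and other effects of that siRNA cannot be told apart. Nothing says that duplicates came from separate cultures, so the spread behind each p-value is that of the arrays alone and may be technical. The RNA is from whole cultures, in which fewer cells of a type and less RNA per cell cannot be told apart. For 2 arrays, siCYLD replicate 1 and siCtrl replicate 2, the source name gives the other siRNA than the title. Groups followed the titles. Over the tested genes the untreated arrays of the same title correlated at 0.9867 (siCtrl) and 0.988 (siCYLD). Untreated arrays of different titles correlated at 0.9636 to 0.9661. With groups by source name, in which each untreated group mixes both titles, 0 of 9 members and 0 genes were called for knockdown (limma, 104 genes at an unadjusted p below 0.05), and AJUBA, CRIM1 and TEAD1 stood at 0.08, 0.04 and 0.06, MYOF at -0.09 and AMOTL2 at -0.14. The alternatives counted below include that one for knockdown. Signals are linear MAS5 intensities. Differences are in log2(signal + 16.06) and are given with their standard error, and a gene is called changed at an adjusted p below 0.05 (limma, Benjamini-Hochberg over 12935 genes).

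The representing CYLD probe set read 411 and 500 in untreated siCtrl and 278 and 230 in untreated siCYLD (55.9% left, -0.80 ± 0.18, adjusted p = 0.0065, limma), and 349 and 176 in the inhibitor pair. Its 3 other kept probe sets had 58.6%, 39.8% and 19.6% left. The most reduced of them read 485 and 550 in untreated siCtrl and 77.2 and 125 in untreated siCYLD, and 421 and 71.1 in the inhibitor pair. On the 2 arrays with conflicting labels it read 77.2 (titled siCYLD replicate 1) and 550 (titled siCtrl replicate 2). The CYLD signal thus followed the titles on both arrays, and not the source names. Epithelial markers had summed signals of 81986 to 99227 on the 6 arrays, with all 6 measured markers above the filter. Within that list KRT5, a basal keratin, read 1094 and 1245 in untreated siCtrl and 12530 with inhibitor. In siCYLD it read 900 and 968 untreated and 5595 with inhibitor. The other markers showed no rise of that size. KRT14 read 76.2 and 62.3 in untreated siCtrl and 107 with inhibitor, but 115 and 148 in untreated siCYLD and 81.4 with inhibitor. KRT8 read 19520 and 20520, then 17930 with inhibitor in siCtrl, and 15680 and 16260, then 17060 in siCYLD. The fibroblast list passed with 4 of 7 markers and summed to 741 to 910, and the leukocyte list passed with 1 of 3 and summed to 124 to 176. The endothelial list passed with 3 of 4 and summed to 245 to 356 untreated and to 955 and 860 with inhibitor. That rise was mostly CDH5, with some VWF, and both exceeded the filter only with inhibitor. CDH5 read 63.0 and 52.6, then 587 with inhibitor in siCtrl, and 59.0 and 5.83, then 462 in siCYLD. VWF read 25.0 and 70.1, then 169 in siCtrl, and 71.4 and 35.9, then 169 in siCYLD. PECAM1 showed no such rise, at 191 and 216, then 191 in siCtrl, and 207 and 188, then 213 in siCYLD. CLDN5 did not pass the filter. The ratio of 3' to 5' ACTB signal is a measure of RNA integrity and labelling. It was 3.21 to 3.67 on the 3 siCtrl arrays and 2.26 to 2.48 on the 3 siCYLD arrays. The same ratio for GAPDH overlapped, at 1.79 to 2.14 and 1.80 to 1.97. The median log2 signal of 12 poly-A spike control probe sets was 9.472 to 9.557 on the siCtrl arrays and 9.634 to 9.945 on the siCYLD arrays. The part of these differences in the results below was not tested.

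Members of the group fell into different patterns. CCN2 and LATS2 fell with the ALK5 inhibitor in both siRNA backgrounds and did not pass the test for knockdown. AJUBA, MYOF, TEAD1, CRIM1 and AMOTL2 fell with the CYLD siRNA, and the first 4 of these rose with the inhibitor in siCYLD cells. AXL and CCN1 were called in no comparison by their representing probe sets, the ones of highest mean signal.

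**Figure D1:**
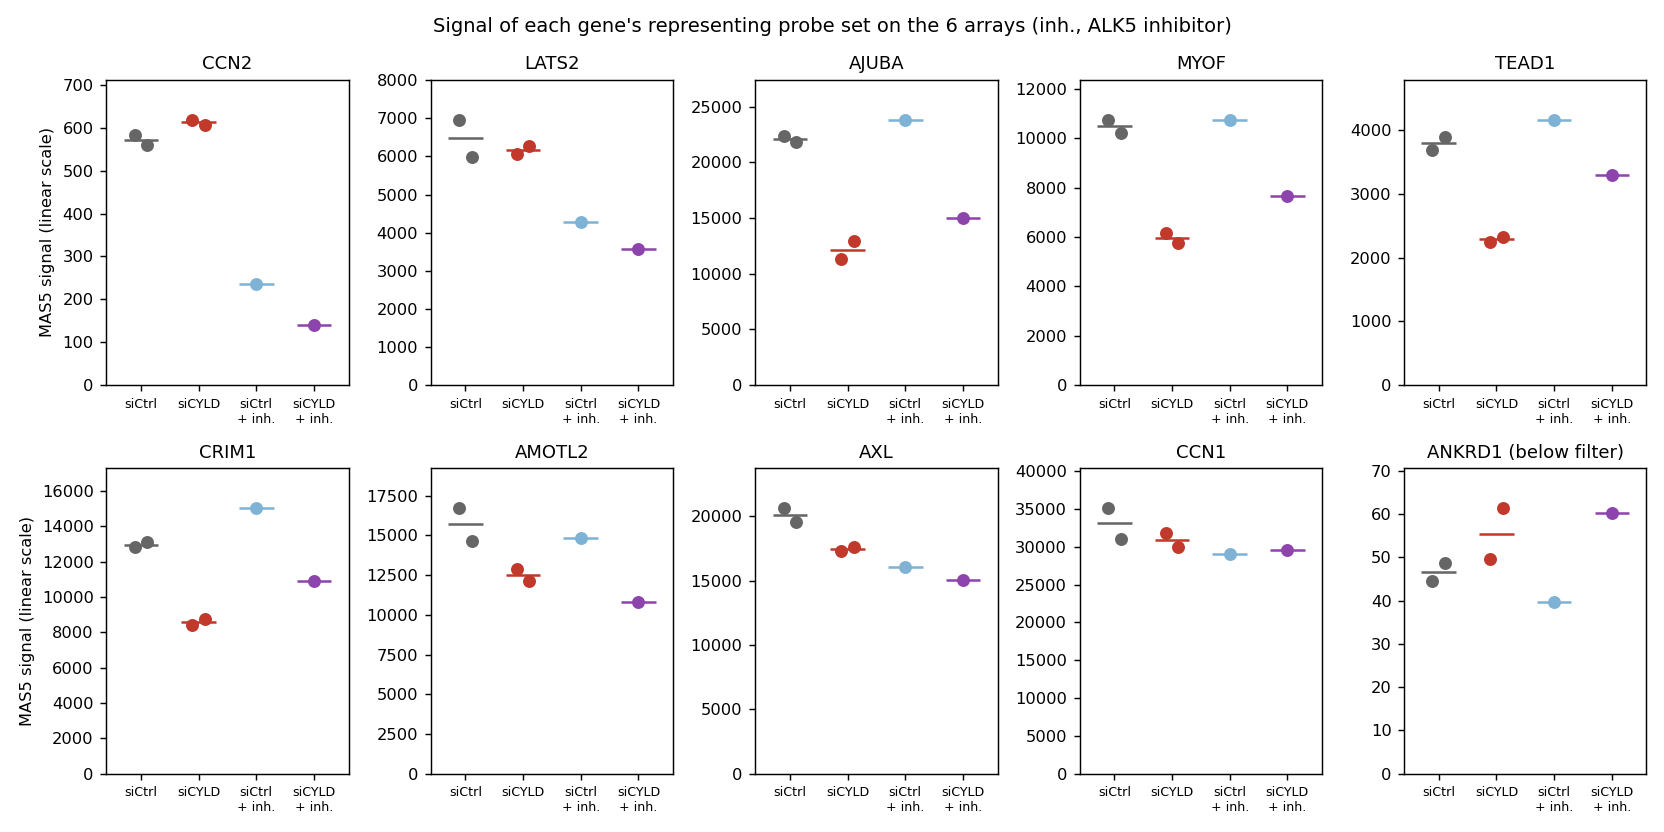
MAS5 signal (linear scale, vertical axis from 0) of the representing probe set of each of the 10 genes on the 6 arrays, by siRNA and inhibitor. Points are arrays and lines are group means, with 2 arrays in each untreated group and 1 in each inhibitor group. The CCN2 and LATS2 points are lowest with inhibitor, while the untreated siCYLD points are the lowest for AJUBA, MYOF, TEAD1 and CRIM1.

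Promoter sequence is shown for 4 members that represent the inhibitor pattern (CCN2, LATS2) and the knockdown pattern (AJUBA, MYOF). Each is the 250 bases before the outermost RefSeq transcription start on GRCh38.p14, read 5′ to 3′ on the gene's strand, which is minus for all 4. Capitals mark GGAATG, the core word bound by TEAD factors, or CAGACA, a SMAD-binding word, searched on both strands. The windows are chr6:131951373-131951622 for CCN2, chr13:21061587-21061836 for LATS2, chr14:22982552-22982801 for AJUBA and chr10:93482335-93482584 for MYOF, each directly upstream of the gene.
CCN2: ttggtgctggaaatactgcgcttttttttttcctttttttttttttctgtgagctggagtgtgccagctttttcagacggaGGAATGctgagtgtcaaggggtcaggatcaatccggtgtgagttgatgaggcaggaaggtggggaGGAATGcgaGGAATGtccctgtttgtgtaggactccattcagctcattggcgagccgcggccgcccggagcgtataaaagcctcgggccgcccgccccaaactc
LATS2: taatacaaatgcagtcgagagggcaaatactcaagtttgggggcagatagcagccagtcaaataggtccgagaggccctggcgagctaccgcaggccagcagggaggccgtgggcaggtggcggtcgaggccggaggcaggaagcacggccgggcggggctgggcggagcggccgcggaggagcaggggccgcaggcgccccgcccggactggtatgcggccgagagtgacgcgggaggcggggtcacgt
AJUBA: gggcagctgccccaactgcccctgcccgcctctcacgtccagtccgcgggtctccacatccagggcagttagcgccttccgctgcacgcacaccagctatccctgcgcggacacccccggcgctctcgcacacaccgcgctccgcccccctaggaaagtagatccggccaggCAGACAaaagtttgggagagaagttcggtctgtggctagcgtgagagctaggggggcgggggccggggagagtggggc
MYOF: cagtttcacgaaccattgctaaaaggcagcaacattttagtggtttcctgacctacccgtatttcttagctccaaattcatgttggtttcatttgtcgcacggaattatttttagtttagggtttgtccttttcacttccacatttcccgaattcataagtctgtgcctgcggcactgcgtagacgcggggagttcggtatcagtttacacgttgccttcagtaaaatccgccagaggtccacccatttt
The CCN2 window held GGAATG 3 times, starting at -169, -104 and -95 from the transcription start. The AJUBA window held CAGACA once, at -78, and the LATS2 and MYOF windows held neither word.

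RefSeq windows were at hand for 7 of the 10 genes, and not for CCN1, CRIM1 and TEAD1. There were 10 windows in all because AJUBA, AMOTL2 and AXL have a second start inside the gene. GGAATG was in 5 of the 10 windows and in 11.9% of 35116 human promoter windows of the same length. The members were chosen as targets of YAP and TAZ, which act through TEAD, so this share is a description and not a test. CAGACA was in 4 of 10 and in 13.6% of all. TGANTCA, the AP-1 word, was in 1 of 10 and in 6.57% of all. The ANKRD1 window held all 3 words, with GGAATG at -220 and -128, CAGACA at -142 and TGANTCA at -195. For AJUBA and AMOTL2, GGAATG lay upstream of the inner start, at -59 and -69. The inner AXL window held GGAATG at -212 and CAGACA at -173. These matches describe letters in the windows and not bound sites.

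CCN2 encodes a secreted matricellular protein, connective tissue growth factor, and lies at chr6:131948176-131951372 (GRCh38.p14). Its single probe set read 583.2 and 559.4 in untreated siCtrl, 619.6 and 606.9 in untreated siCYLD, 235.2 in siCtrl with inhibitor and 141.2 in siCYLD with inhibitor. Both inhibitor arrays lay below all 4 untreated arrays, and the siCYLD inhibitor array was the lowest of all. The inhibitor left 41.2% of the untreated signal in siCtrl cells (log2 difference -1.22 ± 0.18, adjusted p = 0.00125, limma). In siCYLD cells 23% was left (-2.00 ± 0.18, adjusted p = 8.48e-06). The siCtrl call was lost in 1 of 12 alternative analyses, the one without an intensity trend in the variance (adjusted p = 0.0551), and adjusted p over the 12 ranged from 8.69e-07 to 0.0551.

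The difference between the 2 CCN2 inhibitor effects was -0.78 ± 0.26, with a 95% interval of -1.33 to -0.22. Its p was 0.0102 before and 0.175 after adjustment over all genes (limma), so it was not called. Knockdown alone gave 0.10 ± 0.15, with an interval of -0.22 to 0.42. Within the inhibitor pair, which has no replicate, siCYLD stood 0.68 below siCtrl on the log2 scale. In an additive model that averages the untreated and the inhibitor arrays, the knockdown difference was -0.16 instead of 0.10, and it was not called in either.

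LATS2, a kinase that phosphorylates YAP and TAZ and is itself one of their targets, lies at chr13:20973036-21061586. Its representing probe set read 6967 and 5987 in untreated siCtrl, 6068 and 6263 in untreated siCYLD, 4289 in siCtrl with inhibitor and 3564 in siCYLD with inhibitor. The untreated groups overlapped, and both inhibitor arrays lay below them. LATS2 fell by 0.59 ± 0.12 with inhibitor in siCtrl (66.2% left, adjusted p = 0.0094, limma) and by 0.79 ± 0.12 in siCYLD (57.8% left, adjusted p = 0.00057). The difference of the inhibitor effects was -0.20, with an interval of -0.57 to 0.17. Knockdown gave -0.07, with an interval of -0.28 to 0.15.

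A second LATS2 probe set, 223380_s_at, gave inhibitor differences of -0.62 and -0.85, both called. The third above the filter, 230348_at, read 158.2 and 158.7, 90.1 and 132.6, 65.6 and 80.3 in the same order of groups, and was called in no comparison. Without the variance trend both LATS2 inhibitor calls were lost, with an adjusted p of 0.152 in siCtrl and 0.052 in siCYLD. Without the expression filter the siCtrl call was lost too (adjusted p = 0.0508).

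Of the 9 members, 2 fell and 0 rose with the inhibitor in siCtrl cells, where 9.36% of all genes were called, 4.34% lower and 5.02% higher. In siCYLD cells 2 fell and 4 rose, where 22.4% of all genes were called, 12.2% higher and 10.2% lower. The median over the members was -0.08 in siCtrl and -0.06 in siCYLD, against 0.00 and 0.02 over all genes. The inhibitor array lay outside the range of both untreated arrays for 8 of 9 members in siCtrl, where this held for 78.5% of genes, and for 9 of 9 in siCYLD, where it held for 83.6%. Of the 22 probe sets, 4 were called lower and 1 higher in siCtrl, where 6.04% of all probe sets were called, 3.03% lower and 3.01% higher. In siCYLD 3 were called lower and 8 higher, where 16.4% were called, 7.98% lower and 8.37% higher. For the difference between backgrounds 0 of 22 were called, against 0.876% of all.

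Knockdown lowered 5 of the 9 members and raised 0, where 21.3% of all genes were called, 11.8% lower and 9.49% higher. The median difference was -0.32 over the members and -0.04 over all genes. The 2 untreated groups did not overlap for 7 of 9 members, which held for 60.9% of all genes. Among the 22 probe sets 14 were called lower and 0 higher, where 16.8% of all tested probe sets were called, 9.06% lower and 7.70% higher. Several probe sets of a gene are not independent. The members were picked with earlier results of these data known, so the knockdown and inhibitor counts set against all genes are descriptions.

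AJUBA encodes a LIM-domain scaffold that binds and restrains LATS kinases, and lies at chr14:22971177-22982551. Its representing probe set read 22369 and 21806 in untreated siCtrl and 11291 and 12961 in untreated siCYLD, then 23858 and 15038 in siCtrl and siCYLD with inhibitor. All 3 siCYLD arrays lay below all 3 siCtrl arrays. Knockdown left 54.9% of the signal (-0.87 ± 0.09, adjusted p = 1.22e-05, limma). All 4 AJUBA probe sets were called lower, at -0.87 to -1.52.

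With inhibitor in siCYLD cells AJUBA rose by 0.31 ± 0.11, with an adjusted p of 0.0499. That call was lost in 6 of 12 alternatives, where adjusted p ranged from 0.00795 to 0.283 over all 12. Without siCYLD replicate 1 the difference was 0.21 (adjusted p = 0.283). Signals of the probe set 225807_at were 2974 and 2938 for siCtrl, 1001 and 1038 for siCYLD, and 4681 and 2215 with inhibitor, and its inhibitor differences of 0.66 in siCtrl and 1.11 in siCYLD were both called. In the fit over probe sets 225807_at and 243446_at were called in siCYLD, and the representing 225806_at was not (adjusted p = 0.0644).

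MYOF, or myoferlin, is a membrane protein of the ferlin family with roles in membrane repair and receptor trafficking, at chr10:93306429-93482334. It read 10746 and 10208 in untreated siCtrl and 6174 and 5742 in untreated siCYLD, and 10754 and 7637 with inhibitor. The siCYLD inhibitor array lay between the untreated groups. MYOF fell with knockdown to 56.9% (-0.81 ± 0.09, adjusted p = 2.34e-05, limma), and its 3 probe sets were all called lower, at -0.68 to -0.93. Its rise with inhibitor in siCYLD was 0.36 ± 0.11 (adjusted p = 0.0301) and was lost in 5 of 12 alternatives, among them the one without siCYLD replicate 2 (0.31, adjusted p = 0.144, over all alternatives 0.0146 to 0.351).

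TEAD1, a DNA-binding partner of YAP and TAZ, lies at chr11:12674421-12944737. Its signals were 3695 and 3893 in untreated siCtrl, 2249 and 2328 in untreated siCYLD, 4165 in siCtrl with inhibitor and 3298 in siCYLD with inhibitor. The 3 siCYLD arrays were again the lowest, with the inhibitor array highest among them. Knockdown left 60.3% (-0.72 ± 0.10, adjusted p = 0.000153, limma), and 2 of 3 probe sets were called lower, with -0.34 for the third. The inhibitor raised TEAD1 in siCYLD by 0.52 ± 0.12 (adjusted p = 0.00752). The interaction term, the difference between its inhibitor effects, was 0.39 ± 0.17 (adjusted p = 0.325, limma) and was not called.

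The TEAD1 knockdown call was lost in 2 of 16 alternatives, with groups by source name and in the additive model without both arrays whose labels conflict (-0.50, adjusted p = 0.079), and adjusted p over the 16 ran from 4.48e-10 to 0.999. Its inhibitor call in siCYLD was lost in 2 of 12, with the mean of its probe sets and without the variance trend, and ran from 0.00249 to 0.0817.

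CRIM1 encodes a transmembrane protein with cysteine-rich repeats that binds BMP ligands, at chr2:36355778-36551135. It read 12827 and 13076 in untreated siCtrl, 8437 and 8737 in untreated siCYLD, and 15012 and 10892 with inhibitor. The siCtrl inhibitor array was the highest of the 6. CRIM1 fell with knockdown to 66.3% (-0.59 ± 0.08, adjusted p = 0.000187, limma), with 3 of 3 probe sets called at -0.46 to -0.59. With inhibitor in siCYLD it rose by 0.34 ± 0.10 (adjusted p = 0.0266), and its 3 probe sets were called at 0.34 to 0.45. The representing call was lost without siCYLD replicate 1 (0.32, adjusted p = 0.103), without siCYLD replicate 2 (0.37, adjusted p = 0.0553), without the filter and without the variance trend, and adjusted p over its 11 alternatives ran from 0.0136 to 0.165.

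The knockdown comparison and the inhibitor comparison in siCYLD use the same 2 untreated siCYLD arrays, so a chance deviation of those arrays moves both, in opposite directions. For that reason the inhibitor pair is given on its own, since it shares no array with the untreated comparison. In it, siCYLD minus siCtrl was -0.67 for AJUBA, -0.49 for MYOF, -0.46 for CRIM1, -0.46 for AMOTL2 and -0.34 for TEAD1. Each is a single pair of arrays with no test. Of the 9 members, 8 were lower in siCYLD by their representing probe sets, with a median of -0.46 against -0.01 over all genes. The share of all genes that were lower was not counted. Other kept probe sets stood higher for AXL (202685_s_at, 0.246) and LATS2 (230348_at, 0.239). A further LATS2 one, 223380_s_at, was lower (-0.326), as were all those of AJUBA, MYOF, CRIM1 and TEAD1. CCN2 and AJUBA lay more than 0.5 lower, as did 13.0% of all genes.

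In siCtrl cells the inhibitor differences of these 4 genes were not called. They were 0.11 for AJUBA (interval -0.12 to 0.34), 0.04 for MYOF (-0.19 to 0.27), 0.13 for TEAD1 (-0.12 to 0.39) and 0.21 for CRIM1 (-0.003 to 0.43). The difference between the siCYLD and the siCtrl inhibitor effect was called for 0 of the 9 members, with 2 at an unadjusted p below 0.05 (CCN2 and TEAD1), where 1.67% of all genes were called. A different inhibitor response of these genes in the 2 backgrounds was thus not shown, and neither was an equal one. On simulated data the interaction test recovered 2.5% of differences of 0.5 log2 and 59.5% of differences of 1 log2. The simulation gave the lone inhibitor arrays the fitted spread of the duplicates, which is itself an assumption. It changed 200 random genes of any signal level, so these shares are not those of the members.

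**Figure D2:**
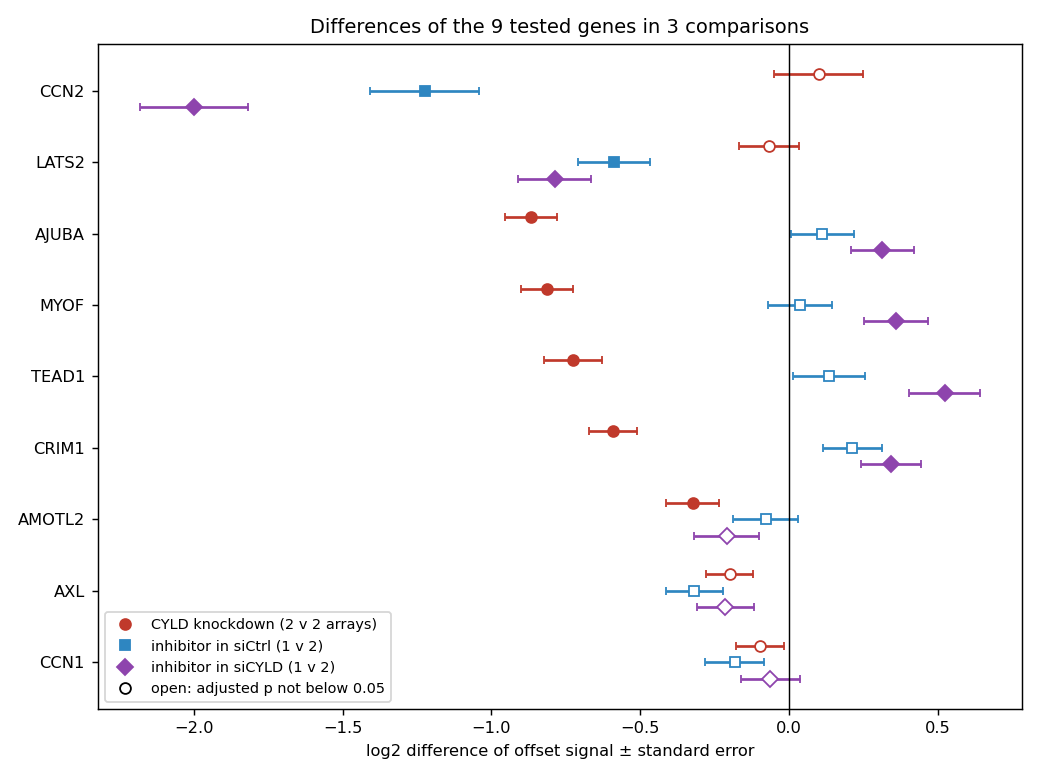
Log2 difference (horizontal axis, points) and standard error (bars) of the 9 tested genes for knockdown (2 against 2 untreated arrays) and for the inhibitor in siCtrl and in siCYLD (1 array against 2). Filled symbols have an adjusted p below 0.05. CCN2 reaches -2.00 with inhibitor in siCYLD, and the filled knockdown points run from -0.87 for AJUBA to -0.32 for AMOTL2.

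AMOTL2 is an angiomotin family protein that binds YAP and holds it at junctions, at chr3:134355345-134375417. Its single probe set read 16715 and 14676 in untreated siCtrl, 12893 and 12148 in untreated siCYLD, and 14838 and 10824 with inhibitor. Knockdown lowered it to 79.8% (-0.32 ± 0.09, adjusted p = 0.0202, limma). This call was lost in 6 of 16 alternatives, among them with groups by source name, without siCtrl replicate 1 (-0.23, adjusted p = 0.103) and without siCYLD replicate 2 (-0.28, adjusted p = 0.103), and adjusted p ran from 0.000289 to 0.999. The inhibitor differences were -0.08 in siCtrl and -0.21 in siCYLD, with an interval of -0.44 to 0.03 for the latter.

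AXL, a receptor tyrosine kinase bound by GAS6, lies at chr19:41219223-41261766. It read 20637 and 19540 in untreated siCtrl, 17325 and 17661 in untreated siCYLD, 16102 in siCtrl with inhibitor and 15074 in siCYLD with inhibitor. All 4 other arrays lay below both untreated siCtrl arrays for this probe set. The other kept AXL probe set, 202685_s_at, read 681 and 488, 577 and 474, 497 and 592 in the same order, with overlapping untreated groups, a siCYLD inhibitor difference of 0.17 and no call. Knockdown gave -0.20 (interval -0.37 to -0.03, adjusted p = 0.0902, limma), and the inhibitor -0.32 in siCtrl (-0.53 to -0.11, adjusted p = 0.0555) and -0.21 in siCYLD (-0.42 to -0.01, adjusted p = 0.131). These p-values do not show that AXL stayed level. The siCtrl inhibitor difference was called without siCtrl replicate 2 (-0.36, adjusted p = 0.0387) and with robust moderation (adjusted p = 0.0472), over a range of 0.0387 to 0.287. The siCYLD inhibitor difference was called with quantile normalization (-0.27, adjusted p = 0.0475) and was -0.02 with the mean of probe sets (range 0.0475 to 0.934). The knockdown difference was called in the fit with a replicate block (adjusted p = 0.0257) and ranged from there to 0.999.

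CCN1, a secreted matricellular relative of CCN2, lies at chr1:85580761-85583950 and read 35081 and 31071 in untreated siCtrl, 31824 and 29904 in untreated siCYLD, and 29092 and 29544 with inhibitor. The untreated groups overlapped. The knockdown difference was -0.10 (interval -0.27 to 0.08). The inhibitor differences were -0.18 in siCtrl (-0.40 to 0.03) and -0.06 in siCYLD (-0.28 to 0.15). This probe set lay at percentiles 99.86 to 99.96 of the arrays, where the highest signal on any array was 48952. Whether differences are compressed at that level was not tested. These values do not show that CCN1 stayed level. Its other probe set, 210764_s_at, disagreed. That one read 35733 and 32435, 26922 and 26241, 25015 and 21962 in the same order, at percentiles 99.67 to 99.96. It was called lower with knockdown (-0.36) and with inhibitor in siCtrl (-0.44).

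ANKRD1, an ankyrin repeat protein of nucleus and sarcomere at chr10:90912096-90921087, stayed under the filter signal of 79.3 in every group. It read 44.5 and 48.7 in untreated siCtrl, 49.5 and 61.4 in untreated siCYLD, 39.6 in siCtrl with inhibitor and 60.3 in siCYLD with inhibitor. At this level no difference was measurable, and a fit without the filter gave adjusted p of 0.814 to 0.928 (limma).

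**Figure D3:**
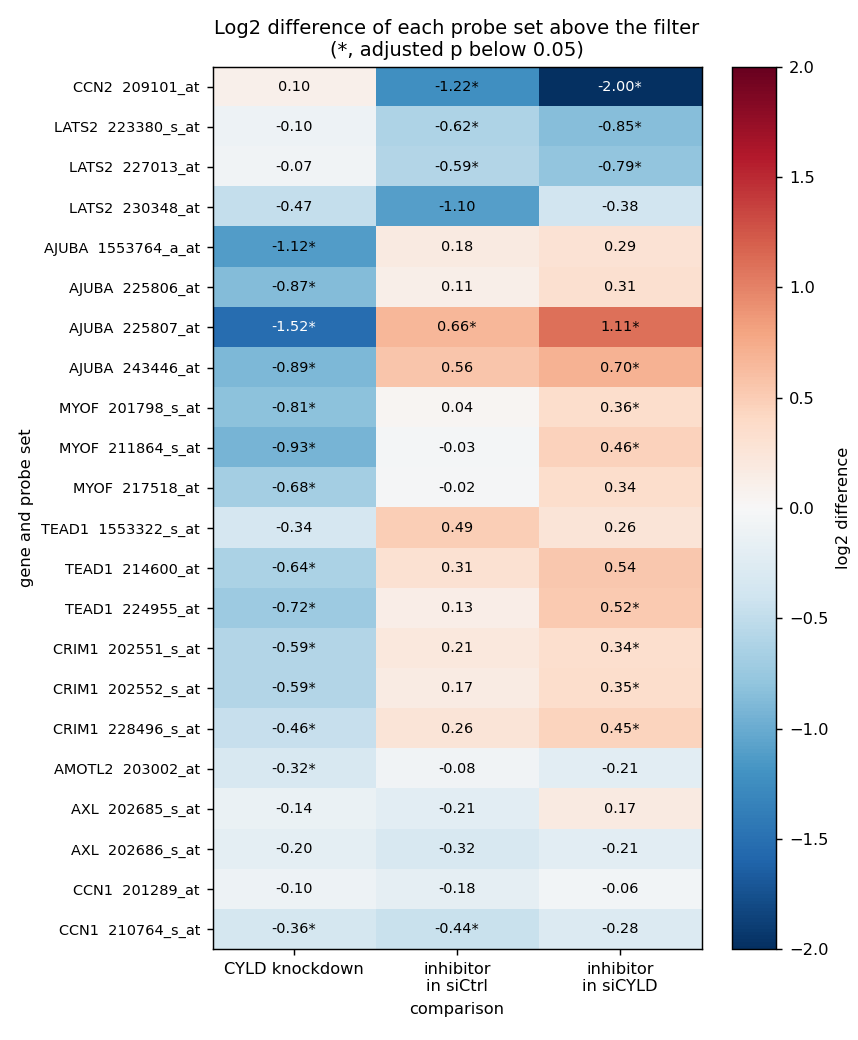
Log2 difference (colour and printed number) of each of the 22 probe sets above the filter, by gene (vertical) and comparison (horizontal). An asterisk marks an adjusted p below 0.05 over 24537 probe sets. All probe sets of AJUBA, MYOF and CRIM1 are called lower with knockdown, while the CCN1, LATS2 and TEAD1 probe sets are not all called together.

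The likeness of the members' profiles was measured as the root mean square difference over the 6 arrays after centring each gene on its own mean log2 level. AJUBA, MYOF, TEAD1 and CRIM1 lay 0.07 to 0.14 from each other. CCN2 and LATS2 lay 0.51 to 0.98 from those 4 and 0.46 from each other. LATS2 was nearer to AXL (0.22), CCN1 (0.28) and AMOTL2 (0.28) than to CCN2. The distance reflects the size of changes as well as their direction. About its own mean, CCN2 had a root mean square of 0.786 and LATS2 one of 0.341. A large distance between them therefore does not mean opposite directions. AXL and CCN1 lay 0.10 apart and AMOTL2 and AXL 0.14. Arrays and probe sets are shared by all these distances, which are descriptions.

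**Figure D4:**
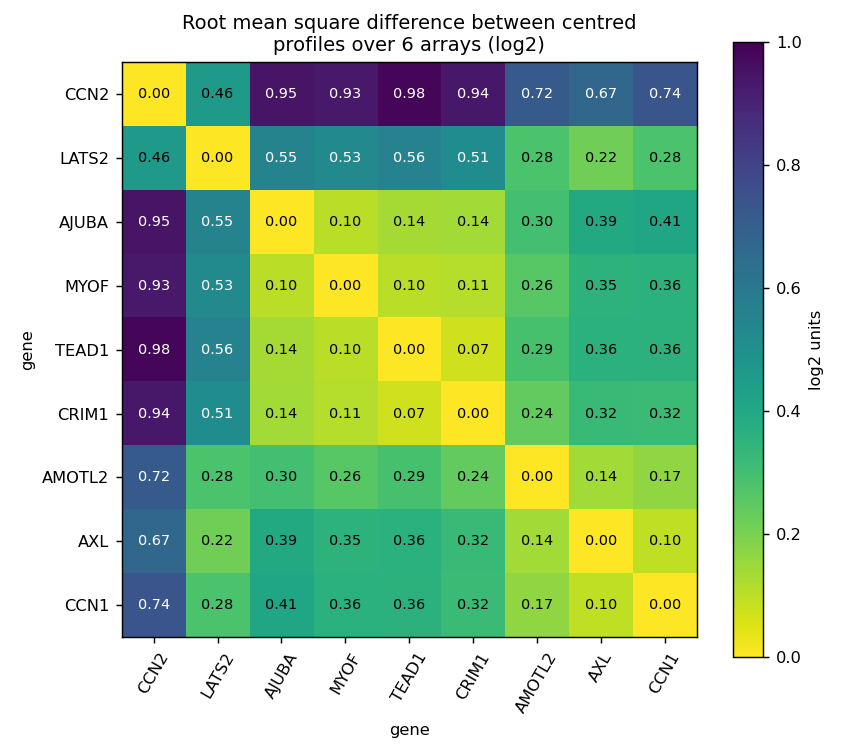
Root mean square difference (log2 units, colour and printed number) between the centred 6-array profiles of each pair of the 9 tested genes. AJUBA, MYOF, TEAD1 and CRIM1 form a block at 0.07 to 0.14, and CCN2 lies farthest from the rest, at 0.46 to 0.98.

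Among all 12935 genes, the profile nearest to CCN2 was that of CPEB4, a regulator of mRNA polyadenylation, at 0.096, followed by CARD6 at 0.11, where the median gene lay at 0.821. For LATS2 they were CPAMD8 at 0.047 and EP300, a histone acetyltransferase, at 0.056. For AJUBA they were PEX7, a peroxisomal import receptor, at 0.053 and AMT at 0.072. MYOF was nearest to RSKR at 0.044 and TBC1D31 at 0.051, TEAD1 to MTUS1 at 0.032 and HNRNPH3 at 0.053, and CRIM1 to PCGF6 at 0.035 and PDK1 at 0.05. For AMOTL2 they were EID1 at 0.04 and SPG11 at 0.042. None of these nearest genes was another member of the group.

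Other genes of the pathway were taken from a list of 29 Hippo components, of which 23 were tested. Knockdown raised 2 and lowered 3 of the 23, where 21.3% of all genes were called, with a median of 0.10 against -0.04 over all genes. TEAD4, another TEAD factor, rose from 645 and 635 in siCtrl to 939 and 1072 in siCYLD, by 0.64 (adjusted p = 0.00281, limma), the opposite direction to TEAD1. WWC1, the scaffold KIBRA, rose by 0.50. STK3, the kinase MST2, fell by 0.62, from 4174 and 4000 to 2653 and 2637. YAP1 fell by 0.31, from 8298 and 8710 to 6551 and 7157 (adjusted p = 0.0257), a call lost in 7 of 16 alternatives, among them without siCYLD replicate 1 (-0.25) and without siCtrl replicate 2 (-0.28), with adjusted p from 0.00288 to 0.999 over the 16. TAOK3, a kinase upstream of MST, fell by 0.34, but with _x_at and _s_at probe sets left out it was represented by another one at 0.20, and its call was also lost without siCtrl replicate 1 (-0.27), without siCYLD replicate 1 (-0.30) and without siCYLD replicate 2 (-0.37). In the additive model without both arrays whose labels conflict none of these 5 was called (adjusted p of 0.118 for TEAD4, 0.107 for WWC1, 0.0671 for STK3, 0.102 for YAP1 and 0.464 for TAOK3). WWTR1, which encodes TAZ, LATS1 and NF2 were not called, at -0.06, 0.03 and 0.20.

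With inhibitor in siCtrl cells 1 Hippo component rose and 4 fell, where 9.36% of all genes were called, with a median of -0.12. In siCYLD cells 0 rose and 6 fell, where 22.4% were called, with a median of -0.31 against 0.02 over all genes. TEAD3 was called lower in both, from 2194 and 2435 to 1246 in siCtrl (-0.88, adjusted p = 0.00729, limma) and from 1767 and 2443 to 1224 in siCYLD (-0.76, adjusted p = 0.00796). TEAD4 rose by 0.62 in siCtrl (adjusted p = 0.0239). In siCYLD, TEAD2 fell by 0.60 (adjusted p = 0.0251) and YAP1 by 0.38 (adjusted p = 0.0258), and both calls were lost without siCYLD replicate 2 (adjusted p of 0.0948 and 0.139). The mean of TEAD2 probe sets gave -0.25 (adjusted p = 0.476). Without the variance trend and, except for TEAD3 in siCYLD, without the filter, none of these TEAD and YAP1 inhibitor calls held. The largest siCtrl fall was that of WTIP, a relative of AJUBA, at -1.25, which was not called without siCtrl replicate 1 (-1.09, adjusted p = 0.0999). LIMD1, a LIM-domain relative of AJUBA, fell in siCYLD by 0.53 (adjusted p = 0.0123), with -0.39 and no call for the mean of its probe sets (adjusted p = 0.0722). STK3 fell in siCtrl by 0.58 (adjusted p = 0.00983), a call lost with the mean of its probe sets (0.0692) and without the variance trend (0.127). The TEAD genes differed in direction. With inhibitor in siCYLD, TEAD1 rose, TEAD2 and TEAD3 fell, and TEAD4 was not called at 0.25.

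Another list held 20 further genes reported as YAP/TAZ targets, of which 17 were tested. Knockdown raised 2 and lowered 2 of the 17, where 21.3% of all genes were called, with a median of -0.04, the same as over all genes to 2 decimals. BIRC5, the mitotic protein survivin, fell by 1.64 ± 0.15, from 699 and 618 to 217 and 183. CCDC80, a matrix-associated protein, fell by 0.92. IGFBP3, an IGF-binding protein, rose by 0.73 ± 0.09, from 6305 and 6956 to 10477 and 11521. TGFB2, a TGF-β ligand, rose by 0.58, but the mean of its probe sets gave -0.10. The additive model, which averages in the inhibitor pair, gave 0.30 for IGFBP3 (adjusted p = 0.304). Without both arrays whose labels conflict it gave 0.16 for IGFBP3 (adjusted p = 0.753) and -0.87 for BIRC5 (adjusted p = 0.088).

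With the inhibitor, 4 of the 17 rose and 1 fell in siCtrl cells, and 5 rose and 4 fell in siCYLD cells, where 9.36% and 22.4% of all genes were called, with medians of 0.18 and -0.15. NT5E, an ectonucleotidase, rose in siCtrl by 0.79 (adjusted p = 0.00326), and RBMS3, an RNA-binding protein, had a siCYLD difference of -1.39 (adjusted p = 0.00856). Neither was called with the mean of probe sets (adjusted p of 0.0625 and 0.0627). DOCK5, a RAC exchange factor, was the gene called lower in siCtrl, at -0.54, a call lost in 5 of 12 alternatives, among them without siCtrl replicate 1 (-0.51), with adjusted p from 0.0102 to 0.771. In siCYLD EDN1 had a difference of 2.80, CCDC80 of -1.78 and IGFBP3 of -0.90, all called. TGFB2 rose in both (1.07 and 1.20), and BIRC5 rose in siCYLD by 2.11, to 916. The matrix glycoprotein THBS1 read 8578 and 7865 in untreated siCtrl, 7868 and 7547 in untreated siCYLD, 15112 in siCtrl with inhibitor and 4749 in siCYLD with inhibitor. It was called higher in siCtrl (0.88) and lower in siCYLD (-0.70). With _x_at and _s_at probe sets left out THBS1 stood at -0.34 in siCtrl, so its probe sets disagreed in direction there, and the mean of its probe sets gave -0.16 in siCYLD (adjusted p = 0.544). The interaction was called for 4 of the 17 genes, EDN1, BIRC5, THBS1 and IGFBP3, where 1.67% of all genes were called, and none of the 4 was called without the variance trend (adjusted p of 0.152 to 0.201).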

How the data were processed

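Total RNA (2 µg per array, biotin-labelled cRNA) of SAS cells was hybridised to 6 Affymetrix arrays, per the labels' protocols. The deposited values are 1 linear intensity per probe set and array, an output of MAS5 that the authors ran, per the submitters' processing notes. Its version and a genome build are not given in the sources used here. After trimming 2% at each end, mean intensity was 500.1 on every array, so no further scaling was applied. Arrays carry no read depth, and their number limits the precision.

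Of 54675 probe sets, 62 were controls, 41091 had 1 symbol in the platform annotation, 1801 several and 11721 none. Log2(signal + 16.06) was taken of those with 1 symbol, with an offset equal to the 20th percentile. They were kept if the highest of 4 group means exceeded the median (signal 79.3), which left 24537. All 9 tested members exceeded it in all 4 groups. The kept probe set of highest mean represented a gene. Percentages left are ratios of linear signals, and log2 differences understate changes near the offset.

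A model of 4 group means was fitted with limma 3.58.1 (R 4.3.3, with the data.table package, version 1.17.8) with an intensity trend, 2 residual and 10.9 prior degrees of freedom, two-sided, with Benjamini-Hochberg adjustment over all genes. Lone inhibitor arrays were assumed to vary as the duplicates do. The fit was tested on simulated data. Figures used matplotlib 3.10.9 in Python 3.11.15. Genes named are all members, the called genes of each list with the 3 largest differences in each direction (more in places), YAP1, WWTR1, TEAD2 to TEAD4, LATS1 and NF2, and the 2 nearest profiles of each called member. The members and lists were chosen with earlier results of these data known. Of the further target list, 17 of 20 genes were analysed here. Alternatives were the offset, filter, quantile normalization, variance trend, robust moderation, the choice of probe set, leaving out each replicate, a replicate block, an additive model and the label conflict. Promoter windows came from RefSeq (GRCh38.p14).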

Additional observations from a re-analysis of the deposited data

Results flagged for a closer look

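For 4 genes of the further YAP/TAZ target list the inhibitor effect differed between siCYLD and siCtrl cells by limma's interaction test (2 untreated arrays and 1 inhibitor array per siRNA). The interaction was -1.27 for IGFBP3 (adjusted p = 0.00176) and -1.57 for THBS1 (adjusted p = 0.000254). It was 2.52 for EDN1 (adjusted p = 0.0382) and 1.75 for BIRC5 (adjusted p = 0.00486). EDN1, a vasoconstrictor peptide gene, read 61.0 and 70.7 in untreated siCtrl, 90.6 and 49.1 in untreated siCYLD, 82.9 in siCtrl with inhibitor and 563 in siCYLD with inhibitor. It exceeded the filter only in the inhibitor groups. Without the variance trend none of these 4 was called (adjusted p of 0.189, 0.152, 0.201 and 0.152 in the order named), and without the filter EDN1 and BIRC5 were not called (adjusted p of 0.215 and 0.0664). The THBS1 call was also lost without _x_at and _s_at probe sets (-0.96, adjusted p = 0.178) and with the mean of its probe sets (adjusted p = 0.121), as were those of EDN1 (0.0825) and BIRC5 (0.0602), and that of EDN1 with an offset of 1 (0.0705).

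For 2 Hippo components the inhibitor array lay on opposite sides of both untreated arrays in the siCtrl and siCYLD backgrounds, while the interaction itself was not called. These were SAV1, the MST scaffold, at 0.31 (adjusted p = 0.447, limma) and the kinase TAOK2 at -0.84 (adjusted p = 0.207).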

How the results depend on the processing

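Over 36 results for the 9 tested members, 460 alternative values were computed. Of these, 416 kept the direction and the side of the threshold, 29 lost a call and 4 gained one. Another 11 changed sign, among them 3 of a called difference, each with groups by source name. The 416 include results that were not called in the main fit. The rise with inhibitor in siCYLD lost its call in 6 of 12 alternatives for AJUBA and 5 of 12 for MYOF. It did so in 4 of 11 for CRIM1 and 2 of 12 for TEAD1. The knockdown calls of AJUBA, MYOF and CRIM1 and the inhibitor call of CCN2 in siCYLD held in every alternative run for them other than groups by source name for knockdown. CRIM1 and AXL have no value with _x_at and _s_at probe sets left out. Without the filter 478 genes were called for the inhibitor in siCtrl, 1819 in siCYLD and 33 for the interaction, against 1211, 2900 and 216, and 1 and 3 members for the inhibitor. Without the variance trend 1219 genes were called for knockdown (2757 with it), 35 for the inhibitor in siCtrl, 1055 in siCYLD and 0 for the interaction (limma, 1480 at an unadjusted p below 0.05), and 0 and 1 members for the inhibitor. The interaction count was 95 with the mean of probe sets and 134 without _x_at and _s_at sets, which left 3 members called for the inhibitor in siCYLD. Leaving out each replicate gave 2111 to 2734 genes for knockdown, 915 to 1682 and 2452 to 3523 for the inhibitor and 288 to 458 for the interaction, and 4 to 5, 2 to 3, 4 to 6 and 0 members. A lone remaining array was assumed to vary like the other groups. An additive model without both arrays with conflicting labels called 986 genes and 3 members for knockdown. Groups by source name, which mix both titles, called 0 genes (limma, 104 at an unadjusted p below 0.05) and 0 members. The fit with a replicate block called 3718 genes and 6 members for knockdown. Deviations of same-numbered arrays correlated at 0.045 over 12935 genes. A low correlation cannot show whether those arrays shared a culture or batch, so it does not decide whether they were paired.

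These values changed sign. With the mean of probe sets they were -0.053 (NF2, knockdown), -0.095 (TGFB2, knockdown), -0.006 (MYOF, inhibitor in siCtrl), -0.16 (YAP1, inhibitor in siCtrl), 0.095 (LATS2, interaction) and 0.036 (NF2, interaction). Without _x_at and _s_at sets they were 0.196 (TAOK3, knockdown), -0.023 (MYOF, inhibitor in siCtrl) and -0.342 (THBS1, inhibitor in siCtrl). With groups by source name, for knockdown, they were 0.081 (AJUBA), 0.039 (CRIM1), 0.062 (TEAD1), -0.044 (CCN2), 0.12 (CCDC80), -0.102 (LATS1), -0.011 (NF2), 0.306 (TEAD3), -0.04 (TGFB2), 0.157 (WWTR1) and 0.099 (YAP1). In the additive model they were -0.159 (CCN2) and -0.04 (LATS1) for knockdown, and without both conflicting arrays -0.311 (CCN2), -0.127 (LATS1) and 0.064 (TEAD3). Leaving out each replicate gave ranges across 0 for these uncalled results: -0.176 to 0.042 (LATS2), -0.049 to 0.109 (LATS1), -0.384 to 0.08 (TEAD3) and -0.176 to 0.048 (WWTR1) for knockdown, -0.172 to 0.016 (AMOTL2) and -0.017 to 0.053 (YAP1) for the inhibitor in siCtrl, -0.02 to 0.204 (WWTR1) in siCYLD, and -0.105 to 0.359 (TEAD3) and -0.164 to 0.06 (WWTR1) for the interaction. The causes were not tested.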
